A study of Mus musculus with 19 samples.

Results

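This report concerns 7 plasma cell genes in blood leukocytes of DBA/2 and C57BL/6 (B6) mice after administration of CAWS, a water-soluble mannoprotein and beta-glucan fraction of Candida albicans that induces coronary arteritis in mice of either strain. The genes were Igj, Prdm1, Xbp1, Sdc1, Tnfrsf17, Tnfrsf13b and Derl3, chosen by name, out of 27597 gene symbols on the array. They were read by 9 of the 41174 probes, because Igj and Tnfrsf13b had a pair of probes each. For these 2 genes the brighter probe was used for the gene and the other is given as the second probe.

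All mice were male and all, including those at 0 w, had received CAWS by daily intraperitoneal injections on consecutive days. The 0 w group was collected right after the last injection, so that the 0 w mice were not untreated, and no uninjected group was analysed here. The later groups, of 2 w and 4 w and of 8 w and 9 w, were surviving mice, and deaths occurred among the DBA/2 mice while few B6 mice died. The methods give 1 age range for all mice and none for each group. RNA came from leukocytes captured from blood on a filter, and each sample was hybridised to a 1-colour Agilent whole mouse genome array. DBA/2 mice were represented by 2 samples at each of the 5 times. B6 mice had 2 samples at 0 w, 4 w and 8 w, and 1 sample at 2 w and at 9 w, giving 18 samples in 10 groups. The methods state that the labelled RNA of individual mice was hybridised, while the labels give no mouse for a sample.

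A plasma cell is the end stage of the B cell. It stops expressing many B cell genes, enlarges its endoplasmic reticulum (ER) and secretes antibody. Prdm1 encodes Blimp-1, the transcriptional repressor that shuts down the B cell program, and Xbp1 encodes the transcription factor that builds the secretory machinery. Igj (now named Jchain) encodes the joining chain of polymeric IgM and IgA. Tnfrsf17 encodes BCMA and Tnfrsf13b encodes TACI, receptors of the cytokines BAFF and APRIL. Sdc1 encodes syndecan-1 (CD138), a surface proteoglycan used to mark plasma cells, and Derl3 encodes a derlin of ER-associated degradation. Xbp1 and Sdc1 are also expressed in liver, and Xbp1 in other secretory and myeloid cells. Circulating blood normally holds few plasma cells.

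The promoter sequences of 2 members are shown, because Igj was lower at all later times in both strains and Derl3 was the only member that held the ER stress element. Each is the 250 bases before the start of the gene, from RefSeq on GRCm38.p6. Jchain lies on the minus strand at chr5:88527898-88528147 and Derl3 on the plus strand at chr10:75893148-75893397. The capitals in Derl3 mark the ER stress element, a sequence bound by ATF6 and XBP1 together with NF-Y, which was found on the minus strand 156 to 138 bases before the start.
Jchain: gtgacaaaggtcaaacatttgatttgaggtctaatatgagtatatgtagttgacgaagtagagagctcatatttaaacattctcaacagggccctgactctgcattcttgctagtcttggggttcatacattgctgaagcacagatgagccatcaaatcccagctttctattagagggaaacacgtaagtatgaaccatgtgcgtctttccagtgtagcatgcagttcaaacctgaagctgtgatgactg
Derl3: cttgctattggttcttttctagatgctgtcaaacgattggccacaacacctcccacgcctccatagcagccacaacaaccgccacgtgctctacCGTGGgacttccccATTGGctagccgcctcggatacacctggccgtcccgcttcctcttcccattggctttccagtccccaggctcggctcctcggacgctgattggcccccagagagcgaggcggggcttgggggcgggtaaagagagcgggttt
The element was searched on both strands as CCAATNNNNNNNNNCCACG in windows of 300 bases, made of 250 before and 50 after the start. It was present in 39 of 32851 windows (0.119%), in 1 of the 7 members and in 8 of the 29 genes with a window in a list of XBP1 targets and ER quality control genes, namely Calr, Canx, Creld2, Dnajc3, Hsp90b1, Hspa5, Pdia6 and Syvn1. The XBP1-binding motif TGACGTGG (0.676% of windows) and the immunoglobulin octamer ATGCAAAT (1.74%) were in none of the 7 windows. The ER stress element and the XBP1-binding motif share the letters CCACG on 1 strand, and a match is a description of the sequence only.

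Signals were scaled to each array, and a scaled signal is given below as a percent of that array's 75th percentile. They describe a gene across samples, and levels of different probes cannot be set against each other. Xbp1, Igj and the main Tnfrsf13b probe were well above background in 18 of 18 samples. Tnfrsf17 was well above background in 5 samples, all of DBA/2 mice. Sdc1 was measured above background in 4 samples, Derl3 in 3 and Prdm1 in 2. Values of these 4 genes that were not well above background are bounds rather than levels, and where a whole group was not above background a difference is given as at least so many fold. For this the dim group was set at the higher of its own signal and the lowest signal measured above background on each array. The brighter group entered at its mean signal. Where 1 of its 2 samples was not well above background, the fold is not a minimum and is given without that wording. The 4 dim genes passed the filter for testing only through the samples in which they were bright. Across the arrays 33.9% to 51.4% of spots were well above background.

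The samples of B6 0 w and B6 8 w stood apart. The summed scaled signal of 17 hepatocyte markers, with the 75th percentile set to 1, was 56.4 to 57.7 at B6 0 w and 39 to 39.9 at B6 8 w, with 15 to 17 markers well above background, against 1.39 to 2.31 in the other B6 samples and 1.26 to 2.72 in DBA/2 mice, with 5 to 8 markers above background. The single B6 2 w sample stood apart in platelet markers, with a summed signal of 141 over 7 markers against 379 to 558 in the other B6 samples and 294 to 488 in DBA/2 mice. Changes from 0 w in B6 mice cannot be had without these samples. When the samples of both groups were left out, a choice made after seeing the data, the calls within DBA/2 mice kept their side of the threshold except that of Sdc1 at 8 w (adjusted p of 0.0573, limma).

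**Figure D1:**
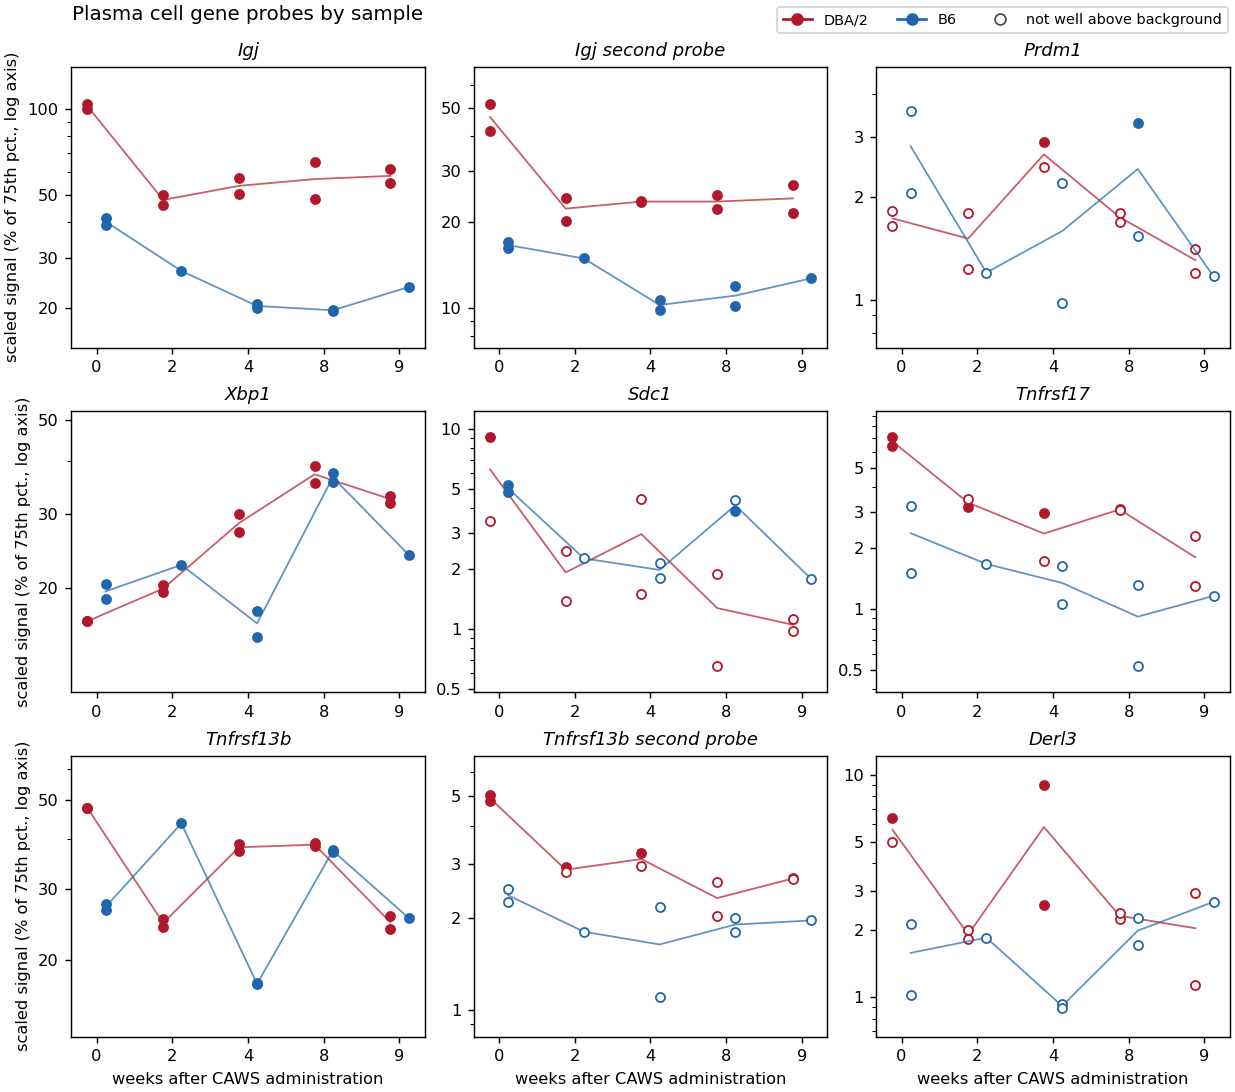
Scaled signal of the 9 probes in each of the 18 samples, in percent of the array's 75th percentile (log axis), against weeks after CAWS administration, with the weeks spaced evenly and not to scale. Points are samples, lines join group means of the percent values, red is DBA/2 and blue is B6, and open points were not well above background. All Igj points of DBA/2 mice (45.8% to 104%) lie above all those of B6 mice (19.6% to 41.4%).

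Igj mRNA levels were highest at 0 w in both strains and were lower at every later time. In DBA/2 mice the scaled signals of the 2 samples were 104% and 100% at 0 w, 50% and 45.8% at 2 w, 57.1% and 50.2% at 4 w, 65% and 48.3% at 8 w and 61.4% and 54.9% at 9 w. In B6 mice they were 41.4% and 39% at 0 w, 27% in the 1 sample at 2 w, 20% and 20.7% at 4 w, 19.6% and 19.7% at 8 w and 23.7% in the 1 sample at 9 w. The 0 w samples of each strain lay above all of its later samples, and even the lowest DBA/2 sample lay above the highest B6 sample. Igj fell by 1.09 on the log2 scale in DBA/2 mice at 2 w (2.13-fold, SE 0.13, limma with Benjamini-Hochberg adjusted p of 0.000881), by 0.93 at 4 w (adjusted p of 0.00181), by 0.86 at 8 w (adjusted p of 0.00143) and by 0.81 at 9 w (adjusted p of 0.00184). The levels from 4 w to 9 w were separated by less than the residual SD of 0.13.

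In B6 mice Igj fell by 0.58 at 2 w (SE 0.16, limma adjusted p of 0.0497), by 0.98 at 4 w (adjusted p of 0.00138), by 1.03 at 8 w (adjusted p of 0.000582) and by 0.76 at 9 w (adjusted p of 0.0194). The call at 2 w lay just under the threshold of 0.05 and was lost when any of 14 single samples was left out. The call at 9 w was lost without either B6 0 w sample (adjusted p of 0.0847 and 0.0551). The fall at 8 w rests on the scaling of the arrays. The 75th percentile, on the log2 scale, was 9.13 and 9.07 on the B6 8 w arrays against 7.98 to 8.14 on those of B6 0 w, and in unscaled values Igj changed by -0.01 (adjusted p of 0.953). Averaged over 4 w and 8 w, Igj fell by 0.9 in DBA/2 mice (SE 0.12, adjusted p of 0.000525) and by 1.01 in B6 mice (SE 0.12, adjusted p of 0.00043). The difference between these changes was 0.11 (SE 0.16, adjusted p of 0.771). A difference between strains in the change was therefore not detected, within about this error.

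The level of Igj itself differed between strains. It was 2.54-fold higher in DBA/2 than in B6 mice at 0 w (adjusted p of 6.48e-05), 2.63-fold higher at 4 w (adjusted p of 4.43e-05) and 2.85-fold higher at 8 w (adjusted p of 3.76e-05). In order of their means, the 5 DBA/2 groups came first, led by 0 w, and were followed by B6 0 w, 2 w, 9 w, 4 w and 8 w. The steps between DBA/2 9 w and 8 w, between DBA/2 8 w and 4 w, and between B6 4 w and 8 w were 0.05, 0.07 and 0.05, below the residual SD. Whether a base difference between the strains alters binding to the probes was not tested. At 0 w, 4 w and 8 w no DBA/2 array shared a slide with a B6 array. A difference between strains at these times cannot be told apart from a difference between slides.

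The second Igj probe gave the same order of strains. Its scaled signals were 51.6% and 41.4% in DBA/2 mice at 0 w and ranged from 20.2% to 26.9% later. In B6 mice they were 17% and 16.2% at 0 w and 9.81% to 14.9% later. It fell by 0.95 to 1.06 in DBA/2 mice at the 4 later times, every one called. In B6 mice it fell at 4 w and 8 w, by 0.7 and 0.59, and its changes of -0.16 at 2 w and -0.38 at 9 w did not pass. By this probe the change at 2 w differed between strains (-0.9), which it did not by the main probe (-0.52, limma adjusted p of 0.149). The main Igj probe spans chr5:89595455-89595514 and the second chr5:89595625-89595684 on mm8, the build of the array's design.

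Tnfrsf17, the receptor that sustains long-lived plasma cells, was measured above background in DBA/2 mice only. Its scaled signals in DBA/2 mice were 7.05% and 6.42% at 0 w, 3.21% and 3.5% at 2 w, 2.99% and 1.73% at 4 w, 3.13% and 3.08% at 8 w and 1.3% and 2.3% at 9 w. Both samples at 0 w and replicate 1 of each group from 2 w to 8 w were well above background. In B6 mice no sample was, and the signals lay between 0.523% and 3.23%. Both DBA/2 0 w samples lay above every other sample. At 9 w the signal in DBA/2 mice was at least 1.7-fold lower than at 0 w (limma adjusted p of 0.0175). The changes from 0 w at the earlier times did not pass in DBA/2 mice (adjusted p of 0.239 for 2 w, 0.0695 for 4 w and 0.15 for 8 w). The difference between strains is a description, because the probe entered the test through DBA/2 samples alone. DBA/2 signals were at least 1.71-fold those of B6 mice at 0 w (adjusted p of 0.0351). At 8 w they were 1.04-fold (adjusted p of 0.0203), which is not a minimum, because 1 of the 2 DBA/2 samples was not well above background. With no filter on dim probes the value at 0 w did not pass (adjusted p of 0.0733). Its direction turned with normexp background correction, to -0.44 on the log2 scale, and to -0.3 (adjusted p of 0.0111) when spots below their local background were also left out. The direction at 0 w is therefore not settled. The call at 0 w was also lost without any 1 of 7 samples (adjusted p from 0.0502 to 0.229). The 9 w call was lost without either DBA/2 0 w sample (adjusted p of 0.0817 and 0.0636) and without replicate 1 of 9 w (0.0903). The 8 w call between strains was lost without either DBA/2 8 w sample (0.0786 and 0.0829) or B6 8 w replicate 1 (0.13). The Tnfrsf17 probe spans chr16:11233530-11233589 (mm8).

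Tnfrsf13b moved differently in the strains and from week to week by its main probe. In DBA/2 mice the scaled signal was 47.9% and 47.8% at 0 w, 25.3% and 24.2% at 2 w, 38.9% and 37.5% at 4 w, 39.2% and 38.4% at 8 w and 25.8% and 23.9% at 9 w. In B6 mice it was 27.6% and 26.7% at 0 w, 43.8% at 2 w, 17.4% and 17.5% at 4 w, 37.7% and 37.2% at 8 w and 25.5% at 9 w. DBA/2 mice were thus high at 0 w and low at 2 w and 9 w, while B6 mice were high at 2 w and 8 w and low at 4 w. In DBA/2 mice it fell by 0.95 at 2 w (SE 0.07, limma adjusted p of 7.4e-05), by 0.32 at 4 w (adjusted p of 0.0134), by 0.3 at 8 w (adjusted p of 0.0119) and by 0.95 at 9 w (adjusted p of 2.26e-05). The B6 signal rose by 0.69 at 2 w (adjusted p of 0.000547), fell by 0.64 at 4 w (adjusted p of 0.000381) and rose by 0.46 at 8 w (adjusted p of 0.00135), with -0.09 at 9 w (adjusted p of 0.597).

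The falls at 4 w and 8 w in DBA/2 mice did not pass when either DBA/2 0 w sample was left out, nor without replicate 2 of 4 w or of 8 w, respectively (adjusted p from 0.0566 to 0.0881). They also depended on the scaling. With the 75th percentile taken over all probes they were -0.24 at 4 w (adjusted p of 0.0819) and -0.16 at 8 w (0.21), and the 8 w value was -0.22 with median scaling (0.0617) and -0.23 with quantile normalization (0.0627). With no filter on dim probes the adjusted p was 0.168 and 0.138. The change differed between strains by -1.64 at 2 w (adjusted p of 1.67e-05), -0.77 at 8 w (adjusted p of 0.000907) and -0.85 at 9 w (adjusted p of 0.00167). Averaged over 4 w and 8 w the difference was -0.23 (adjusted p of 0.126). B cell markers moved in part with this probe. The summed scaled signal of 10 B cell markers, with the 75th percentile set to 1, was 37.9 to 40.8 in DBA/2 mice at 0 w, 21 to 22.2 at 2 w, 27.9 to 28.7 at 4 w, 25.5 to 27 at 8 w and 19.8 to 20.4 at 9 w. In B6 mice it was 29.3 to 29.5 at 0 w, 39.8 at 2 w, 23.1 to 24.1 at 4 w, 28.9 to 29.6 at 8 w and 28.7 at 9 w, with at least 9 of the 10 markers well above background in every sample. In B6 mice at 8 w this sum was at its 0 w level, while the Tnfrsf13b probe was above its 0 w level. The part of B cell number in the Tnfrsf13b values was not tested, nor that of the low platelet markers in the B6 2 w sample. In bulk samples, fewer cells of a type and less RNA per cell cannot be told apart.

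Tnfrsf13b was read by probes of unlike brightness. The main probe was designed from a full-length cDNA clone (chr11:60965192-60965251, mm8) and the second from the reference transcript (chr11:60957661-60963069, across an intron). The second was well above background in 4 samples, all of DBA/2 mice, with 5.04% and 4.82% at 0 w and 2.03% to 3.27% later, and 1.1% to 2.49% in B6 mice. By it, Tnfrsf13b was at least 2.14-fold lower in DBA/2 mice at 8 w than at 0 w (adjusted p of 0.012) and at least 1.25-fold lower at 9 w (adjusted p of 0.0305). It was above background in none of the 8 B6 samples and gives no direction there. The rise of Tnfrsf13b in B6 mice therefore rests on 1 probe. At 0 w both probes were higher in DBA/2 mice, by 1.76-fold for the main probe (adjusted p of 2.35e-05) and by at least 1.33-fold for the second (adjusted p of 0.0107), which entered the test through DBA/2 samples alone.

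**Figure D2:**
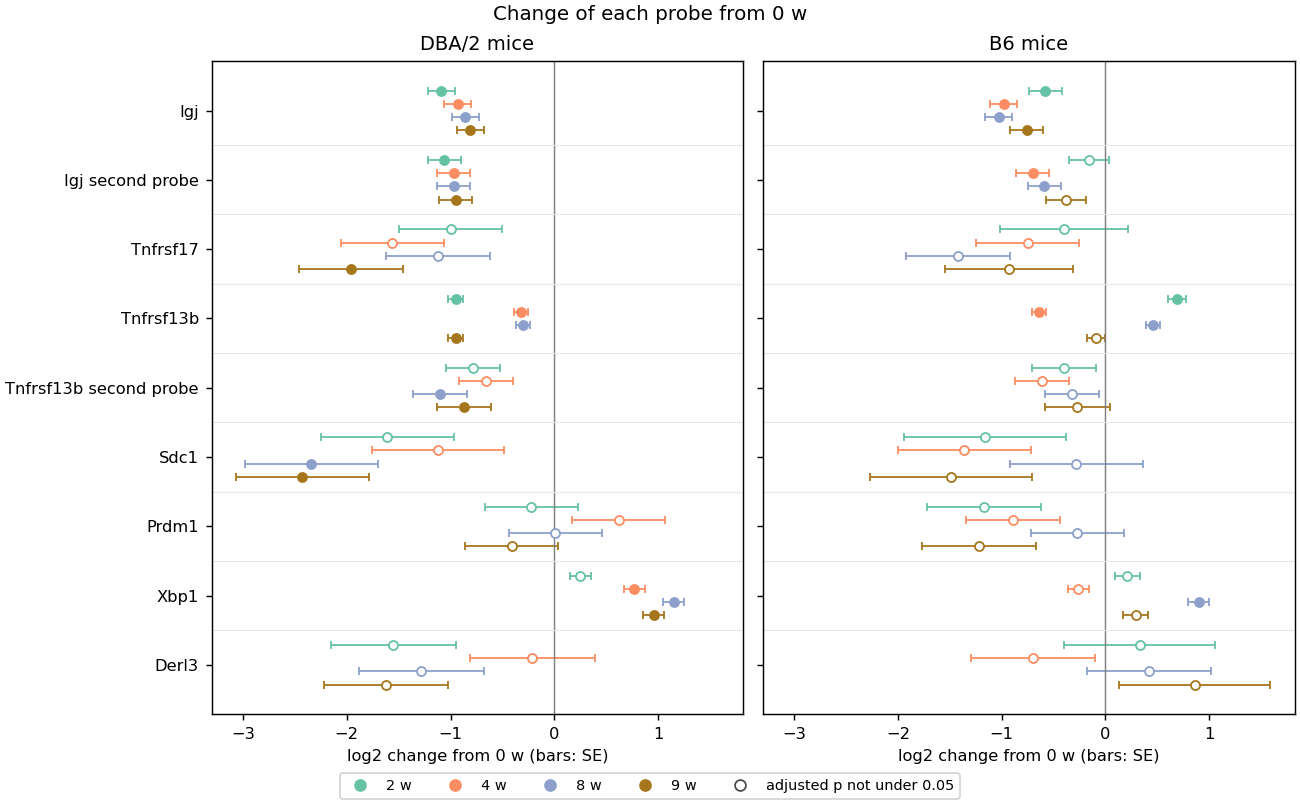
Log2 change of each probe from 0 w in DBA/2 mice (left) and B6 mice (right), with SE bars from the limma fit over all 10 groups; the time is given by colour and open points had an adjusted p of 0.05 or more. The Igj probe lies left of 0 at all 4 times in both strains, whereas Xbp1 lies at 0.77 to 1.15 in DBA/2 mice from 4 w to 9 w and reaches 0.9 in B6 mice at 8 w.

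Sdc1 was at the limit of detection in most samples. In DBA/2 mice its scaled signals were 3.47% and 9.07% at 0 w, of which only the second was well above background, 2.45% and 1.38% at 2 w, 1.49% and 4.46% at 4 w, 1.89% and 0.651% at 8 w and 1.12% and 0.977% at 9 w. In B6 mice they were 4.83% and 5.23% at 0 w, both above background, 2.25% at 2 w, 2.14% and 1.8% at 4 w, 3.88% (above background) and 4.41% at 8 w and 1.78% at 9 w. The DBA/2 0 w samples lay far apart. With the dim group set as above, Sdc1 in DBA/2 mice was 2.51-fold lower at 8 w than at 0 w (limma adjusted p of 0.0258) and 1.42-fold lower at 9 w (adjusted p of 0.0199). Neither fold is a minimum, because 1 of the 2 samples at 0 w was not well above background. Without replicate 2 of DBA/2 0 w, the only sample of that strain above background, the log2 changes were -1.65 (adjusted p of 0.173) and -1.73 (adjusted p of 0.136). The 8 w call was also lost with the slide as a block (-2.34, adjusted p of 0.0919), in DBA/2 mice fitted alone (0.083), with no filter on dim probes (0.0572) and without replicate 2 of 8 w (0.176), and the 9 w call without either 9 w sample (0.0514 and 0.0865).

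In B6 mice no change of Sdc1 passed. The B6 groups with Sdc1 above background, 0 w and 8 w, were also those in which hepatocyte markers were high. In B6 0 w all 17 markers of that list were above background. The part of hepatocyte RNA in the Sdc1 values of B6 mice was not tested. Sdc1 was read at chr12:8818585-8818644 (mm8).

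Prdm1 was near background throughout. It was well above background in DBA/2 4 w replicate 1 (2.89%) and in B6 8 w replicate 1 (3.29%) and ranged from 0.975% to 3.57% over all samples. No comparison of Prdm1 passed, and its largest change in DBA/2 mice was 0.62 at 4 w (SE 0.45, limma adjusted p of 0.445). Changes of this size were not detectable with this SE. In B6 mice its changes lay between -1.22 and -0.27. The smallest unadjusted p of Prdm1 was 0.0399, for the strain difference in the change at 4 w (limma adjusted p of 0.174). The probe spans chr10:44125900-44125959 (mm8).

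Xbp1 went the other way from Igj in DBA/2 mice. Its scaled signals in these mice were 16.7% in both samples at 0 w, 19.6% and 20.3% at 2 w, 29.9% and 27.1% at 4 w, 38.9% and 35.5% at 8 w and 33.1% and 31.9% at 9 w. In B6 mice they were 20.5% and 18.8% at 0 w, 22.7% at 2 w, 17.7% and 15.3% at 4 w, 35.7% and 37.5% at 8 w and 24% at 9 w. The DBA/2 samples from 4 w on lay above all DBA/2 samples of 0 w and 2 w without overlap, while in B6 mice the 8 w samples alone stood apart. Xbp1 rose in DBA/2 mice by 0.77 at 4 w (1.7-fold, SE 0.1, limma adjusted p of 0.000792), by 1.15 at 8 w (2.22-fold, adjusted p of 3.41e-05) and by 0.96 at 9 w (1.94-fold, adjusted p of 0.000126). At 2 w the change was 0.25 (adjusted p of 0.12).

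In B6 mice Xbp1 rose by 0.9 at 8 w (1.86-fold, adjusted p of 0.00019), and its changes at 2 w (0.21, adjusted p of 0.344), 4 w (-0.26, 0.112) and 9 w (0.29, 0.185) did not pass. The change averaged over 4 w and 8 w was 0.96 in DBA/2 mice (adjusted p of 4.74e-05) and 0.32 in B6 mice (adjusted p of 0.0321). The B6 value lost its call without either B6 0 w sample, without either B6 8 w sample and without B6 4 w replicate 1 (adjusted p from 0.0568 to 0.221). The difference of 0.64 between strains passed (SE 0.12, adjusted p of 0.00751), including when any 1 sample was left out. It was 0.04 (adjusted p of 0.845) in unscaled values. At single weeks the strains differed in the change by 1.02 at 4 w (adjusted p of 0.00129) and 0.67 at 9 w (adjusted p of 0.0226), and the difference was 0.05 at 2 w and 0.26 at 8 w (adjusted p of 0.918 and 0.258). The 9 w value rests on 1 B6 sample and lost its call without either DBA/2 0 w sample or B6 0 w replicate 1 (adjusted p from 0.0575 to 0.0702). The levels at DBA/2 8 w and B6 8 w, which head the order of groups, were 0.02 apart on the log2 scale. The Xbp1 probe spans chr11:5424970-5425029 (mm8).

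Summed myeloid markers were also higher at later times, except monocyte markers in the B6 2 w sample, which were lower than at B6 0 w. The summed signal of 10 monocyte markers in DBA/2 mice was 103 to 109 at 0 w, 138 to 146 at 2 w, 196 to 207 at 4 w, 233 to 259 at 8 w and 205 to 236 at 9 w. In B6 mice it was 136 to 147 at 0 w, 115 at 2 w, 152 to 160 at 4 w, 195 to 213 at 8 w and 201 at 9 w. The sum of 10 neutrophil markers in DBA/2 mice was 107 to 108 at 0 w and 282 to 292 at 2 w. It was 336 to 362 at 4 w, 706 to 786 at 8 w and 266 to 325 at 9 w. In B6 mice this sum was 57.4 to 57.7 at 0 w, 190 at 2 w and 141 to 151 at 4 w. It was 431 to 434 at B6 8 w and 225 at B6 9 w. The part of myeloid cells in the Xbp1 values was not tested. Hepatocyte markers were high in B6 mice at 8 w, where Xbp1 was high, and also at 0 w, where Xbp1 was at 18.8% to 20.5%.

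**Figure D3:**
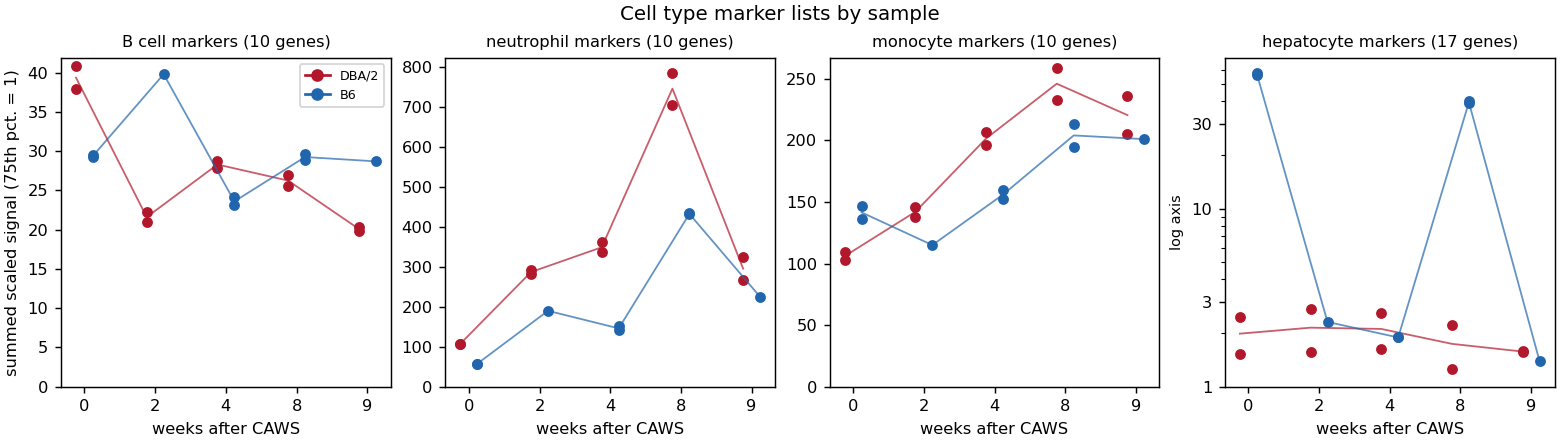
Summed scaled signal of 4 cell type marker lists in each sample (array's 75th percentile = 1) against weeks after CAWS administration, weeks spaced evenly, with a log axis for hepatocyte markers. Points are samples and lines join group means, red DBA/2 and blue B6. B cell markers were low at 2 w in DBA/2 mice and high at 2 w in B6 mice, neutrophil markers were highest at 8 w in both strains, and hepatocyte markers were high in B6 mice at 0 w and 8 w.

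Derl3, an XBP1 target, was measured in DBA/2 mice only, in 1 sample at 0 w (6.36%, the other 4.96% and not above background) and in both at 4 w (2.6% and 9.04%). The other DBA/2 samples lay between 1.13% and 2.95% and the B6 samples between 0.895% and 2.68%. The 4 w samples of DBA/2 mice lay far apart. No change from 0 w passed in either strain. As for Tnfrsf17, the probe entered the test through DBA/2 samples alone, and the difference between strains is a description. Derl3 signals of DBA/2 mice were 1.52-fold those of B6 mice at 0 w (limma adjusted p of 0.0333) and at least 1.32-fold at 4 w (adjusted p of 0.0124). The fold at 0 w is not a minimum, because 1 of the 2 DBA/2 samples was not well above background. With no filter on dim probes the 0 w value did not pass (0.0688), and with a floor on the signal neither did (0.178 and 0.159). With normexp the direction turned, to -0.38 and -0.43 on the log2 scale, and to -0.23 and -0.16 with spots below their local background left out, so that it is not settled. The 0 w call was lost without either DBA/2 0 w sample or B6 0 w replicate 1 (adjusted p of 0.143, 0.0816 and 0.201), and the 4 w call without DBA/2 4 w replicate 2 (log2 difference 1.51, adjusted p of 0.0833) or either B6 4 w sample (adjusted p of 0.0505 and 0.0584). Its probe spans chr10:75339474-75339533 (mm8).

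Counted together, 2 of the 7 genes were called against 0 w in DBA/2 mice at 2 w (15.7% of all 22939 probes tested), 3 at 4 w (14.8% of all probes), 4 at 8 w (24%) and 5 at 9 w (27.7%). The counts for B6 mice were 2 at 2 w (13% of all probes), 2 at 4 w (15.7%), 3 at 8 w (21.2%) and 1 at 9 w (9.33%). For the mean of 4 w and 8 w, 1 gene was higher and 2 were lower in DBA/2 mice (9.79% of all probes higher, 13.1% lower, 22.9% in all), and 1 was higher and 1 lower in B6 mice (7.28% higher, 7.71% lower, 15% in all). The change differed between strains for 1 gene, higher in DBA/2 mice (6.48% of probes higher, 6.73% lower, 13.2% in all). By week, the change of 1 gene differed between strains at 2 w (15.3% of probes), of 1 at 4 w (11.8%), of 1 at 8 w (17.5%) and of 2 at 9 w (12.3%). With 7 genes, shares of this size are only a few genes either way. Set directly against B6 mice, DBA/2 mice had 4 genes called at 0 w (32.7% of probes), 4 at 4 w (32.1%) and 2 at 8 w (25.4%), each higher in DBA/2 mice. These counts include Tnfrsf17 and Derl3, for which the filter favoured that direction, and with no filter the count at 0 w was 2. These comparisons share samples and are not independent of each other.

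Changes were also taken within replicate numbers, which for DBA/2 mice from 2 w to 8 w were hybridised on the same slide as their 0 w sample. Igj was lower in 6 of 6 such pairs (-1.13 to -0.67) and the second Igj probe in 6 of 6 (-1.14 to -0.8). Xbp1 was higher in 6 of 6 (0.23 to 1.22). Tnfrsf13b was lower in 6 of 6 by the main probe (-0.98 to -0.29) and Tnfrsf17 in 6 of 6 (-1.89 to -0.87). For Tnfrsf17 the later sample of each replicate 2 pair was not well above background. Those changes, -1.89 among them, are therefore not measured sizes. The 6 pairs reuse the 2 DBA/2 0 w samples, as the B6 pairs reuse the 2 B6 0 w samples, so that pairs are not independent. In B6 mice Igj was lower in 5 of 5 pairs on a slide (-1.05 to -0.62; B6 0 w replicate 2 was the mean of 2 arrays, 1 of them on that slide), while Xbp1 was higher in 3 and lower in 2.

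Among the members, Igj and Tnfrsf17 had a Pearson r of 0.82 over the 18 samples, and 0.664 within the 10 DBA/2 and 0.687 within the 8 B6 samples. Tnfrsf17 was well above background in 5 of the 10 DBA/2 samples and 0 of the 8 B6 samples. The r within B6 mice therefore rests on background values of Tnfrsf17 and shows no shared change there, and the other 2 rest on them in part. Igj and Xbp1 had an r of -0.0628 over all samples and -0.493 within DBA/2 mice. Among 17058 probes above background in at least 9 samples, those most like Igj were an Igh probe (r = 0.97), Mpp6 (0.958), a second Igh probe (0.946), Agpat4 (0.943) and Cox7c (0.943). Among those most like Xbp1 were Cd244a (0.96), Myd88 (0.959), App (0.954) and Ckap4 (0.952). Those most like Tnfrsf13b were Mrpl11 (0.946), Nubp1 (0.942), Trnau1ap (0.939), Mrpl52 (0.936) and Ostc (0.934). Samples of these correlations share strain and scaling, and the values are descriptions.

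The Igh probe A_51_P509679, of the immunoglobulin heavy chain and most like Igj, had scaled signals (75th percentile = 1) of 24.2 and 24.2 in DBA/2 mice at 0 w and 11 to 16.1 later. The B6 samples had 13.8 and 13.6 at 0 w and 5.01 to 7.58 later. The probe was picked by its likeness to Igj over these same samples, so that its agreement with Igj is a description and not a separate result. As for Igj, both 0 w samples of each strain lay above all its later samples. It fell by 0.93 over 4 w and 8 w in DBA/2 mice (limma adjusted p of 1.7e-05) and by 1.37 in B6 mice (adjusted p of 2.98e-06), a smaller fall in DBA/2 mice by 0.44 (adjusted p of 0.0194).

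Immunoglobulin chains were taken from a list of 48 probes, of which 41 were tested. The list includes the 2 Igh probes named above for their likeness to Igj. Over 4 w and 8 w, 19 were lower and 0 higher in DBA/2 mice, with a median change of -0.45 against -0.14 for all probes, of which 13.1% were lower and 9.79% higher. In B6 mice 7 were lower and 0 higher, with a median of -0.07 against -0.08 for all probes (7.71% lower, 7.28% higher). The change differed between strains for 7 of the 41 probes, a share near the 13.2% of all probes. It was lower in DBA/2 mice for 5 of them, such as Igk-V19-14 (-1.44) and Igk-V38 (-1.16). It was higher for 2, which were the Igh probes named above for their likeness to Igj. At 0 w, 21 of the 41 were higher in DBA/2 than in B6 mice and 1 was lower (median 0.58 against 0.06 for all probes, of which 32.7% were called). Near-identical gene copies can share a probe and binding differences between strains were not tested, so that the direct difference between strains is uncertain for this list.

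**Figure D4:**
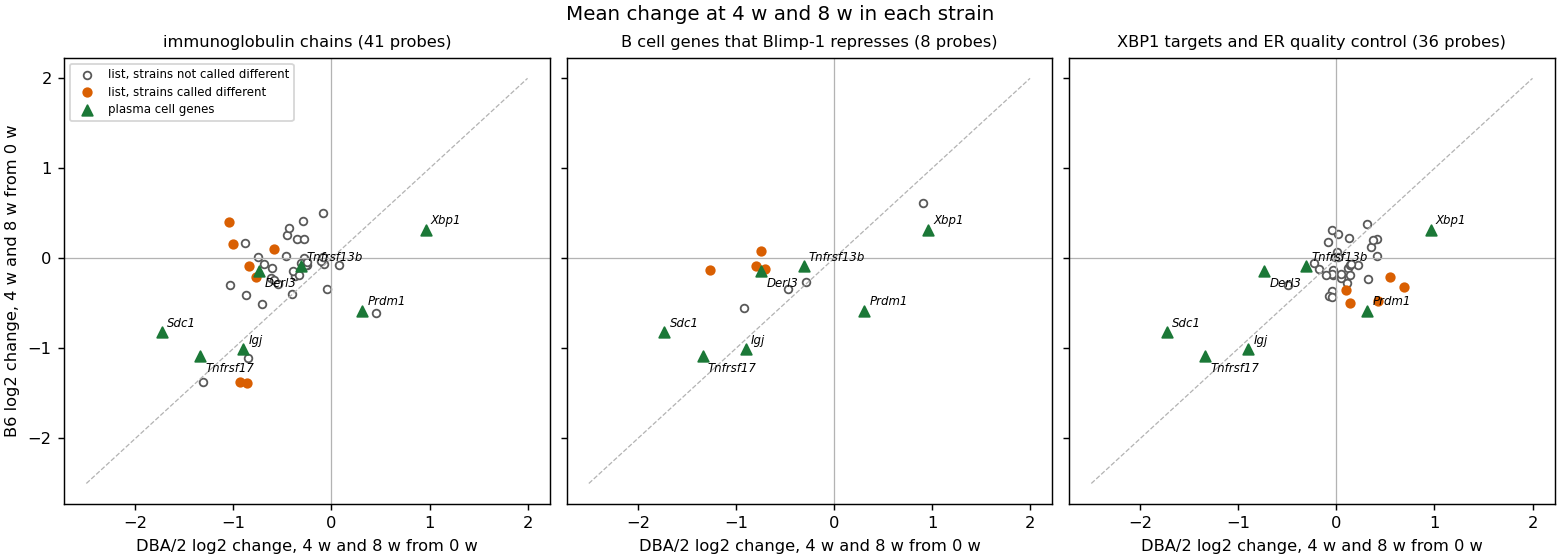
Mean log2 change at 4 w and 8 w from 0 w in DBA/2 mice (horizontal) against B6 mice (vertical) for immunoglobulin chains (41 probes), B cell genes that Blimp-1 represses (8) and XBP1 targets with ER quality control genes (36); orange points had a change called different between strains and the dashed line marks equal change. Green triangles are the 7 plasma cell genes. Igj lies near the dashed line at -0.9 and -1.01, Xbp1 at 0.96 and 0.32, and 7 of the 8 Blimp-1-repressed genes lie left of 0.

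B cell genes that Blimp-1 represses moved with time in DBA/2 mice. Of 8 such genes, 7 were lower and 1 higher over 4 w and 8 w in DBA/2 mice (median -0.72), where 13.1% of all probes were lower and 9.79% higher. In B6 mice 1 was lower and 1 higher (median -0.12, with 7.71% and 7.28% of all probes). The change was lower in DBA/2 than in B6 mice for 4 of them (6.73% of all probes). Bach2, a repressor that keeps B cells from becoming plasma cells, had log2 values of 0.62 in both DBA/2 samples at 0 w, -0.59 in both at 4 w and -0.67 and -0.7 at 8 w. In B6 mice it was -0.03 and -0.02 at 0 w, -0.15 and -0.2 at 4 w and -0.13 and -0.15 at 8 w. It fell by 1.26 in DBA/2 mice with -0.13 in B6 mice, a difference of -1.13 (limma adjusted p of 3.85e-05). Ciita, the activator of MHC class II genes, differed by -0.82 (adjusted p of 0.00294), Cd22, an inhibitory receptor of B cells, by -0.7 (adjusted p of 0.00101) and Id3 by -0.59 (adjusted p of 0.0214). Of the 10 B cell markers, 7 were lower and 0 higher in DBA/2 mice (median -0.5), and 0 were called in B6 mice (median -0.19), against the same shares of all probes. The part of B cell number in the values of these genes was not tested.

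Of 36 XBP1 targets and ER quality control genes, 7 were higher and 1 lower in DBA/2 mice over 4 w and 8 w (median 0.07), near the 22.9% of all probes called. In B6 mice 4 were higher and 6 lower (median -0.13, with 15% of all probes called). The change differed between strains for 5, near the 13.2% of all probes, so that these counts are not results about the list. Each of the 5 was higher in DBA/2 mice. Sdf2l1, an ER chaperone partner, differed by 1.01 (limma adjusted p of 0.00265), Pdia6, a disulfide isomerase, by 0.88 (adjusted p of 0.000691), Hspa5, the chaperone BiP, by 0.76 (adjusted p of 0.00299) and Herpud1, of ER-associated degradation, by 0.64 (adjusted p of 0.00155). The fifth was Manf, an ER stress protein that was named after its value was seen, with a difference of 0.46 (adjusted p of 0.046). Hspa5 had log2 values of 1.34 and 1.36 in DBA/2 mice at 0 w and 1.96 and 1.95 at 4 w, against 1.65 and 1.54 in B6 mice at 0 w and 1.26 and 1.25 at 4 w. The strains thus crossed between 0 w and 4 w for Hspa5. Herpud1 went from 1.03 and 0.99 at 0 w to 0.38 and 0.35 at 4 w in B6 mice. In DBA/2 mice it went from 0.54 and 0.47 to 0.61 and 0.65. The summed hepatocyte markers were 56.4 to 57.7 at B6 0 w and 1.89 at B6 4 w. The part of hepatocyte RNA in the B6 values of these genes was not tested. At 4 w, where Xbp1 was 1.73-fold higher in DBA/2 than in B6 mice (adjusted p of 0.00021), 21 of the 36 genes were higher in DBA/2 mice and 2 lower (median 0.43 against 0.06 for all probes, of which 32.1% were called in either direction). Strain cannot be told apart from slide in this comparison. The direct differences at 0 w and 8 w are not given for this list, and a link of these genes to Xbp1 was not tested.

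The ligands and the third receptor of the BAFF and APRIL system were tested with the receptors above. Tnfsf13, which encodes APRIL, had log2 values of -4.59 and -4.81 in DBA/2 mice at 0 w and -2.89 and -2.95 at 8 w, and -2.69 and -3 in B6 mice at 0 w and -2.25 and -2.4 at 8 w. DBA/2 0 w replicate 2 was not well above background. The level in DBA/2 minus B6 mice was -1.86 at 0 w (limma adjusted p of 1.97e-05), -0.49 at 4 w (0.0374) and -0.59 at 8 w (0.02), so that DBA/2 mice stayed lower. At 8 w the B6 signal also rose, by 0.52 (adjusted p of 0.0427). Its change over 4 w and 8 w was 1.49 in DBA/2 mice and 0.18 in B6 mice, a difference of 1.32 (limma adjusted p of 0.00197). Tnfrsf13c, the BAFF receptor of mature B cells, went the other way, with a change of -0.75 in DBA/2 mice and -0.14 in B6 mice (difference -0.61, adjusted p of 0.00319). Tnfsf13b, which encodes BAFF, changed by -0.06 and 0.1 and did not pass in either strain or between them.

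Of 18 other plasma cell genes, 17 were tested. Over 4 w and 8 w, 2 were higher and 3 lower in DBA/2 mice (median -0.03, with 22.9% of all probes called), and 1 was higher and 2 lower in B6 mice (median -0.19, with 15% of all probes). The change differed between strains for 3 of them (13.2% of all probes), and with 17 genes none of these counts is a result about the list. The 3 were Eaf2 (-0.64, limma adjusted p of 0.0244), Cxcr4, the chemokine receptor that directs plasma cells to bone marrow (0.6, adjusted p of 0.00987), and Itgb7, an integrin chain of gut homing (0.47, adjusted p of 0.00512). All 3 are also expressed by other leukocytes.

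Markers of other blood cells moved over the same times. Over 4 w and 8 w, 7 of 10 T cell markers were lower in DBA/2 mice and 6 in B6 mice, with 0 higher, and 10 of 10 neutrophil markers were higher in both strains (limma, Benjamini-Hochberg). Of all probes, 9.79% were higher and 13.1% lower in DBA/2 mice, and 7.28% and 7.71% in B6 mice. Of 10 monocyte markers 9 were higher in DBA/2 mice, while 3 were higher and 2 lower in B6 mice. Their part in the values of the plasma cell genes was not tested.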

How the data were processed

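Blood leukocyte RNA of 18 samples was measured on 19 single-colour Agilent G4122F arrays, B6 0 w replicate 2 on 2 arrays that were averaged. Per the file headers, the deposited intensity values were background-subtracted and detrended within the array by Agilent Feature Extraction 9.5.3.1, with no normalization between arrays. Very low values were replaced by a surrogate, and this limits dim probes. Values were log2 processed signals minus the array's 75th percentile over the 11536 probes that exceeded background on each of the 19 arrays. Spots of 1 probe were averaged, and control spots and outlier spots were left out. The number of arrays limits the precision.

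Groups followed the sample titles. Tests used limma 3.58.1 in R 4.3.3 over all 10 groups (8 residual degrees of freedom), with Benjamini-Hochberg adjustment over the 22939 probes that exceeded background in 2 or more samples and a threshold of 0.05. The 2 groups with 1 sample borrow their spread from the others. The arrays came from 6 slides and 2 scan days, and the scan day coincided with the replicate number. Arrays of DBA/2 0 w, 2 w, 4 w and 8 w lay on slides without B6 arrays. Those of DBA/2 9 w lay on slides without other DBA/2 groups. The slide block could therefore not separate direct differences between strains, or the change of DBA/2 mice at 9 w, from the slide. Alternatives covered background correction, scaling, filters, probe choice, replicate and slide blocks, array weights and leaving out samples. The fit was tested on simulated data.

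The 7 genes and all gene lists were chosen with earlier results of these data known. From each list at most 4 genes were named, those called between strains with the largest difference (Manf was added after its value was seen), and the 5 probes most like a member were named by Pearson correlation among probes that exceeded background in 9 or more samples. Of these, 1 is not reported here. Probes were named by accession through the RefSeq table (24375), by the name in the file (6301) or by a synonym (2426), and 8072 kept the name in the file. Motifs were counted with Python 3.11.15, and figures were drawn with matplotlib 3.10.9.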

Additional observations from a re-analysis of the deposited data

Results flagged for a closer look

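The change of Xbp1 from 0 w differed between the strains by 0.64 on the log2 scale over 4 w and 8 w (DBA/2 minus B6, limma adjusted p of 0.00751), by 1.02 at 4 w (adjusted p of 0.00129) and by 0.67 at 9 w (adjusted p of 0.0226). Every DBA/2 sample from 4 w on had more Xbp1 than both DBA/2 0 w samples, while both B6 4 w samples had less than both B6 0 w samples. The value at 9 w set 2 DBA/2 samples against 1 B6 sample.

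The change of the main Tnfrsf13b probe differed between the strains by -1.64 at 2 w (limma adjusted p of 1.67e-05), by -0.77 at 8 w (adjusted p of 0.000907) and by -0.85 at 9 w (adjusted p of 0.00167), with 1 B6 sample at 2 w and at 9 w. The second Tnfrsf13b probe was above background in none of the 8 B6 samples and gives no value for these comparisons. These differences were tested singly after the data had been seen.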

How the results depend on the processing

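Of 804 values of single members under other settings, 710 were counted as unchanged, 81 lost the call, 3 gained it and 10 were counted as changed in sign. Of 876 with 1 sample left out, 822 were counted as unchanged, 54 lost the call and 0 were counted as changed in sign. A change of sign was counted only for a member called in the main fit or in the other fit. A member called in neither was counted as unchanged even where its sign turned. The averaged strain difference of Igj, for example, ranged from -0.49 to 0.22 and was never called. Both tallies covered members called in the main fit, and every member only for the averaged strain difference in the change. A call gained by any other member was not counted in them. Such gains occurred in both, and some of them show in the numbers of genes called given below. At B6 8 w, 7 genes in place of 3 were called with normexp without spots below their local background. The difference of 0.64 for Xbp1 was lost in unscaled values (0.04), with no filter on dim probes (adjusted p of 0.0621) and with normexp background correction (0.52, adjusted p of 0.968).

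Numbers of the 7 genes called changed as follows. Normexp gave 0 or 1 in every comparison but its fit was displaced by spots below their local background on 4 of the 19 arrays. Under it the sign turned for Sdc1 at DBA/2 9 w (0.73), Tnfrsf17 at DBA/2 9 w (0.82), Tnfrsf17 between strains at 0 w (-0.44), Derl3 between strains at 0 w (-0.38) and 4 w (-0.43) and the Tnfrsf13b strain difference at 9 w (0.12). With those spots left out, a setting chosen after seeing the data, the counts were 1 at B6 2 w, 7 at B6 8 w, 4 at B6 9 w, 5 for the B6 mean, 2 for the strain difference, and 2, 4 and 4 for the strain difference at 2 w, 8 w and 9 w. Between strains Tnfrsf17 at 0 w was then -0.3 (adjusted p of 0.0111) and Derl3 was -0.23 at 0 w and -0.16 at 4 w. Unscaled values gave 2 at B6 9 w, 5 between strains at 8 w and 5 for the strain difference at 8 w, and turned the Xbp1 strain difference at 9 w (-0.22). A floor of 10 on the signal gave 1 between strains at 8 w, 2 for the strain difference and 2 for it at 2 w, 3 at 4 w and 2 at 8 w, with 48 of 126 member values under the floor. No filter on dim probes gave 2 at DBA/2 8 w, 1 at B6 2 w, 0 at B6 9 w, 1 for the B6 mean, 0 for the strain difference, 2 between strains at 0 w and 1 for the strain difference at 9 w. Requiring 9 samples above background gave 3 at DBA/2 9 w, 2 and 1 between strains at 0 w and 8 w and 2 for the strain difference at 4 w. B6 2 w gave 1 with the 75th percentile over all probes, with quantile normalization, with outlier spots kept and with the first array alone of B6 0 w replicate 2, and 0 with a gene's probes averaged. That first array gave also 1 for the B6 mean and 2 for the strain difference at 4 w, and the second array 1 for the strain difference at 9 w. Averaged probes gave 0 at B6 9 w, and 2 and 1 for the strain difference at 2 w and 9 w. The slide block gave 2 at B6 9 w, DBA/2 alone 2 at 8 w, B6 alone 2 at 9 w, and array weights 5 for the DBA/2 mean. The median of all probes moved by up to 0.15 (DBA/2 8 w) with the percentile over all probes or quantile normalization.

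With 1 sample left out, the counts ranged from 2 to 4 at DBA/2 8 w, 3 to 6 at DBA/2 9 w, 1 to 2 at B6 2 w, 0 to 1 at B6 9 w, 1 to 2 for the B6 mean, 2 to 4 and 1 to 3 between strains at 0 w and 8 w, and 1 to 2 for the strain difference at 9 w. With the replicate block, 2 genes in place of 1 differed in the change at 4 w, and no other count moved by over 1.5 times. Same-numbered samples deviated together within some sets of groups. Correlations were 0.286 to 0.455 between B6 0 w, 4 w and 8 w and 0.334 to 0.403 between DBA/2 0 w, 2 w, 4 w and 8 w. The groups of a set by number shared scan days and mostly slides. Between these sets correlations were -0.0109 to 0.0988. DBA/2 9 w had 0.0159 to 0.0545 with the other DBA/2 groups and 0.153 to 0.354 with B6 0 w, 4 w and 8 w. Its arrays shared slides with B6 arrays and with no other DBA/2 group. Neither the labels nor the methods say what a number marks, so the fit without the block was kept. The slide block lost the call of Sdc1 at DBA/2 8 w (-2.34, adjusted p of 0.0919). A block for scan day was not run apart from the replicate block, since both are the same. Signal over background limits Tnfrsf17, Sdc1, Derl3 and Prdm1.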
